A study of Mus musculus with 14 samples.

Results

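Liver expression of 10 minor cytochrome P450 genes was examined in male (M) and female (F) CD-1 mice aged 3, 4 or 8 wk. The genes were Cyp2j5, Cyp2j6, Cyp2u1, Cyp2f2, Cyp2r1, Cyp17a1, Cyp4f13, Cyp4f14, Cyp4f15 and Cyp4v3. They were chosen by name, with earlier results of these data known, as P450 genes outside the large hepatic Cyp2, Cyp3a and Cyp4a groups. Their probes were found through the RefSeq accessions on the array. The genes make up 10 of 19751 genes named in this way, and their probes 12 of 39429, since Cyp2j6 and Cyp2r1 had 2 probes each.

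The groups were males and females of 1 outbred strain, for which the labels name no treatment, and are called M3, M4, M8, F3, F4 and F8 by sex and age in wk. Each group gave 2 RNA pools, of 5 livers each at 3 wk and of 6 livers each at 4 and 8 wk. Single animals were therefore not measured on the arrays. The pools were compared on 14 2-colour arrays in 7 comparisons, each with 2 arrays that carried separate pools and exchanged dyes. There were 3 sex ratios (M3/F3, M4/F4 and M8/F8) and 4 age ratios (M8/M3 and M8/M4 in males, F8/F3 and F8/F4 in females). The same pools served in several comparisons, so comparisons that share a group are not independent. The arrays lay on 4 slides scanned on 2 days: the 3 sex ratios and M8/M3 took up 2 slides of the earlier day, and the remaining 3 age ratios 2 slides of the later one.

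P450 enzymes are haem monooxygenases that insert oxygen into fats, steroids, vitamins and foreign chemicals, with electrons supplied in the endoplasmic reticulum by P450 reductase (Por) and cytochrome b5. Cyp2j enzymes form epoxides of arachidonic acid, whereas Cyp2u1, Cyp4v3 and the Cyp4f enzymes hydroxylate the far end of fatty acids and eicosanoids such as leukotriene B4. Several hepatic P450s are known to differ between the sexes in rodents, where the sex-dependent pattern of growth hormone secretion sets in around puberty.

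A ratio is given as log2 of the first group over the second, as estimated by limma from 2 arrays. Its standard error (SE) draws on the spread of all 14 arrays, treated as independent. Calls were made at an adjusted p below 0.05 and a change of more than 1.5-fold in either direction, for probes that stood clear of background on both arrays in 1 of the groups or in both. All 12 probes were well above background in all 28 channels. Over the arrays, 55.2% to 77.2% of spots in a channel were well above background (median 66.5%). The hepatocyte markers were bright in every pool, with a summed log2 level that averaged 19.20 in M8 (the lowest group) and 19.35 in F8 (the highest), and 6 of 6 measured markers were above background in all channels. Of these, Alb fell in M8/M3 (-0.71 ± 0.10) and M8/M4 (-0.68 ± 0.10), Apoc3 rose in F8/F3 (0.63 ± 0.05) and Tat in F8/F4 (0.65 ± 0.04). In M8/F8 none was called and their median was -0.31.

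Of the 10 genes, 5 were called in at least 1 comparison (Cyp2u1, Cyp2f2, Cyp17a1, Cyp4v3 and Cyp4f13) and 5 in none. Of all probes tested, 21.8% had a call anywhere in the 7 comparisons. The genes and the lists below were chosen with earlier results of these data known. A share above that of all probes therefore cannot be read as an excess. None of the 10 genes was called between the sexes at 3 wk, where 4 had an unadjusted limma p under 0.05. The lowest adjusted p there was 0.0775, and 0.464% of all probes tested were called. At 4 wk 1 was called (Cyp17a1, lower in males), against 1.44% of all probes. At 8 wk 4 were called, 3 higher in males (Cyp2u1, Cyp2f2 and Cyp4v3) and 1 higher in females (Cyp17a1), against 6.31% of all probes.

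With age, 4 genes rose in males from 3 to 8 wk (Cyp2u1, Cyp2f2, Cyp4f13 and Cyp4v3) and none fell, against 16.8% of all probes called in either direction in M8/M3. In M8/M4 3 genes rose (Cyp2u1, Cyp2f2 and Cyp4v3), against 10.1% of all probes. In females 2 genes rose in F8/F3 (Cyp2f2 and Cyp17a1), against 10.8%, and 1 in F8/F4 (Cyp17a1), against 5.41%. The 10 genes had a median log2 ratio of 0.38 in F8/F3 and of 0.34 in M8/M3, beside 0.02 over all probes tested in each. From 3 to 4 wk, taken through the shared 8 wk pools, no member was called in M4/M3 or F4/F3 with limma, where 3 and 1 had an unadjusted p under 0.05 and 0.231% and 0.0916% of all probes were called.

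**Figure D1:**
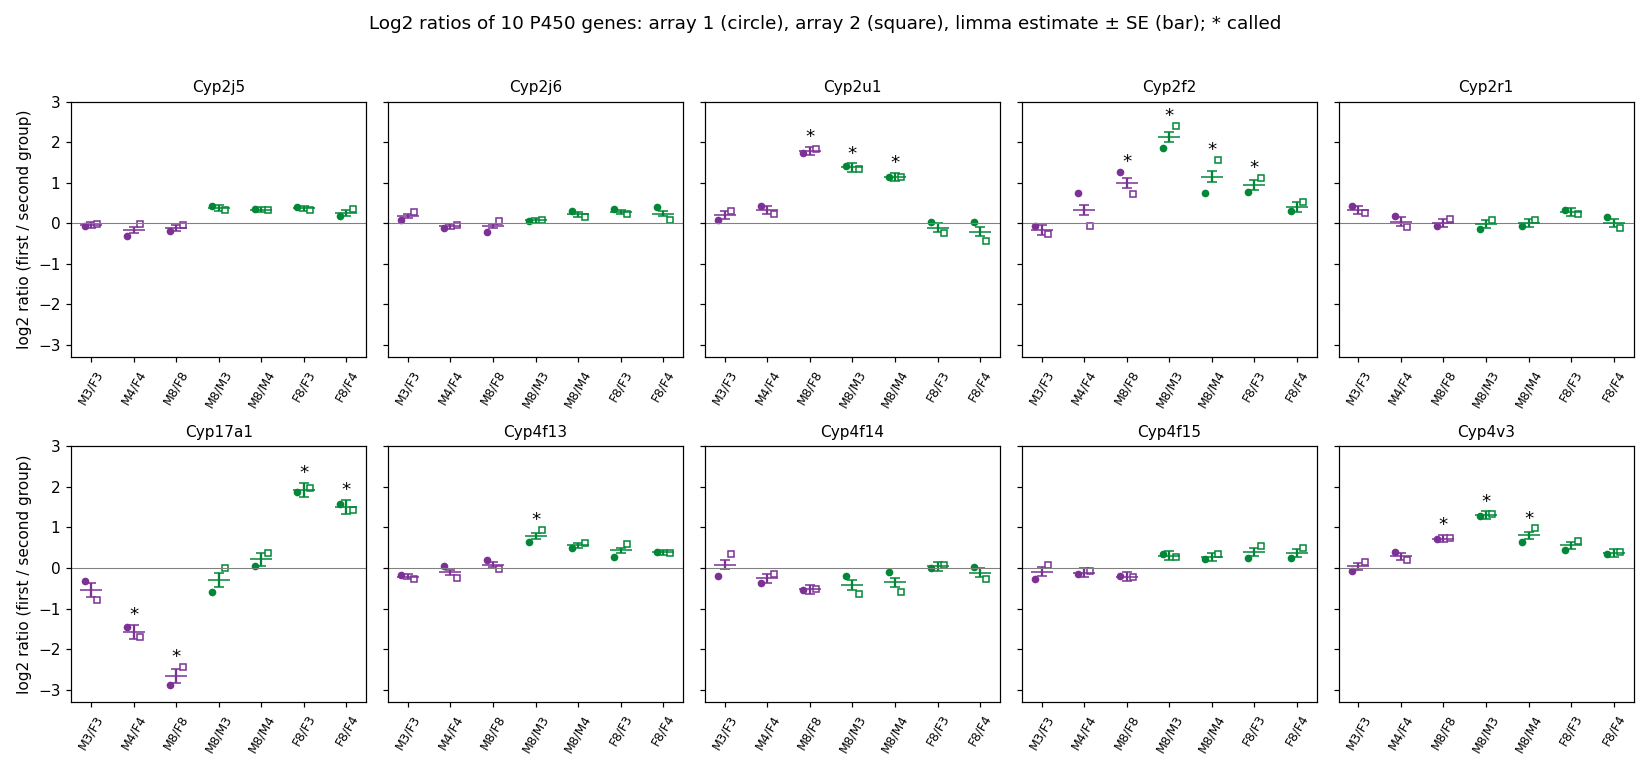
Log2 ratio of each of the 10 genes (y axis) in the 7 comparisons (x axis; sex ratios purple, age ratios green), with circles and squares for the 2 arrays, bars for the limma estimate ± SE, and asterisks for calls. Cyp17a1 goes from -0.55 in M3/F3 to -2.66 in M8/F8, while Cyp2u1 is at 1.78 in M8/F8 and at -0.11 in F8/F3.

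Cyp2j5 and Cyp2j6, the 2 arachidonic acid epoxygenases, are close paralogs on chromosome 4, where Cyp2j9 lies between them, so signal from near-identical family members on their probes cannot be told apart. Cyp2j5 was called between the sexes at no age, with log2 ratios of -0.20 and -0.04 on the arrays of M8/F8 (estimate -0.12, 95% interval -0.28 to 0.05). M4/F4 was -0.31 and -0.02 (estimate -0.17, limma adjusted p = 0.18), and M3/F3 was -0.08 and -0.03. Its age ratios were 0.41 and 0.33 on the arrays of M8/M3 and 0.40 and 0.33 on those of F8/F3. The estimates of 0.37 ± 0.07 in both sexes passed the p threshold (limma adjusted p = 0.0151 and 0.0155) but not the fold threshold. The difference between M8/M3 and F8/F3 was 0.00, with an interval of -0.23 to 0.24.

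The 2 probes of Cyp2j6 gave different answers for age. On the brighter probe, whose mean log2 signal was 12.20, M8/M3 was 0.06 and 0.08 on its arrays (estimate 0.07, interval -0.06 to 0.21). On the dimmer probe, at 9.41, M8/M3 was 0.88 and 0.69 (estimate 0.79 ± 0.05, limma adjusted p = 0.000237). The dimmer probe also passed both thresholds in M8/M4 (0.78), F8/F3 (0.79) and F8/F4 (0.61), all ± 0.05, where the brighter probe was at 0.22, 0.28 and 0.24. Both probes carry the same RefSeq accession. Neither differed between the sexes past the threshold at any age, the largest estimate being 0.18 in M3/F3 (adjusted p = 0.0922). The 2 probes of Cyp2r1, in contrast, lay within 0.06 of each other in all 7 comparisons.

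**Figure D2:**
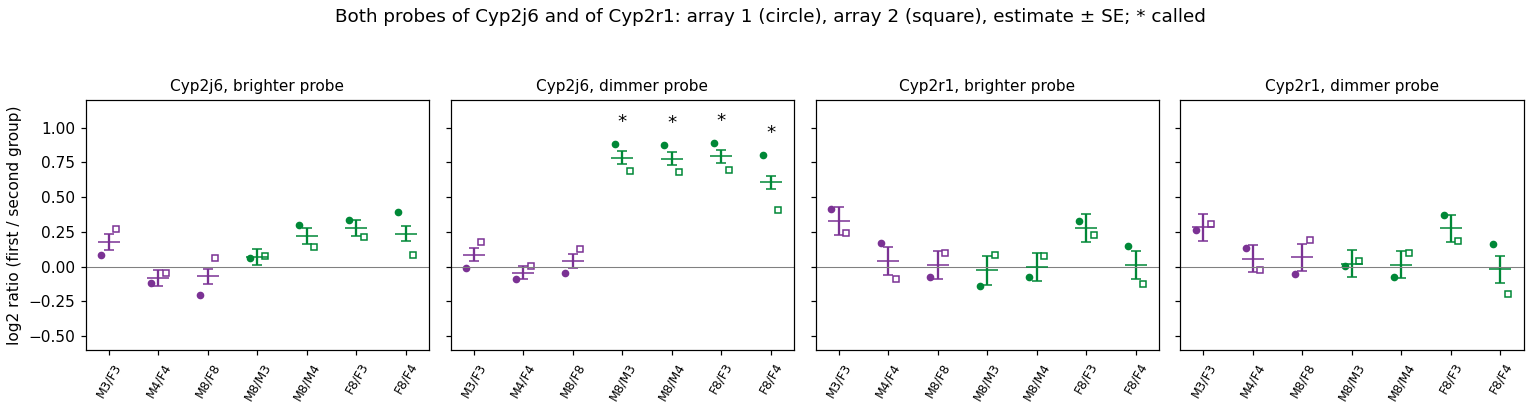
Log2 ratios (y axis) of the brighter and the dimmer probe of Cyp2j6 and of Cyp2r1 in the 7 comparisons (x axis), with circles and squares for the 2 arrays, bars for the limma estimate ± SE, and asterisks for calls. The dimmer Cyp2j6 probe is called in all 4 age comparisons (0.61 to 0.79), the brighter probe in none (0.07 to 0.28).

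Of 12 further Cyp2j and Cyp4f genes, 10 had a named probe, and 7 of these were above background in all channels. Cyp2j9, the neighbour of Cyp2j5 and Cyp2j6, was higher in males at 8 wk (M8/F8 0.89 ± 0.07, limma adjusted p = 0.000442) and rose in males from 3 to 8 wk (1.25 ± 0.07). Cyp4f17 rose in M8/M3 (0.71 ± 0.05) and M8/M4 (0.59 ± 0.05). These calls were 1 of 8 tested in M8/F8, 2 of 8 in M8/M3 and 1 of 8 in M8/M4, against 6.31%, 16.8% and 10.1% of all probes. The median log2 ratio of the list was 0.31 in M8/M3 and -0.06 in M8/F8.

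Cyp2u1, a fatty acid hydroxylase known mainly from brain and thymus, was the most male-biased of the 10 genes at 8 wk. The study designed primers to measure it by quantitative PCR, shown here because Cyp2u1 was the most male-biased member; the position of its array probe relative to them was not examined.
Cyp2u1 first primer: ttcctcacatgacctcggagaa
Cyp2u1 second primer: gattaggaccactgtgcctttgg

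On the arrays of M8/F8, Cyp2u1 had log2 ratios of 1.73 and 1.82 (estimate 1.78 ± 0.10, limma adjusted p = 0.000202), a 3.43-fold excess in males. It was 0.09 and 0.31 in M3/F3 (adjusted p = 0.287) and 0.43 and 0.24 in M4/F4 (adjusted p = 0.0788). All 6 sex ratios were above 0, and both at 8 wk lay far above the 4 at younger ages.

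In males Cyp2u1 rose by 1.37 ± 0.10 from 3 to 8 wk (arrays 1.41 and 1.34) and by 1.14 ± 0.10 from 4 to 8 wk (1.14 and 1.13). In females the arrays of F8/F3 gave 0.03 and -0.25, and the estimate of -0.11 had an interval of -0.35 to 0.13. The difference of the age ratios between the sexes was 1.48 ± 0.14 from 3 wk (adjusted p = 0.00465) and 1.34 ± 0.14 from 4 wk (adjusted p = 0.0115). Across all probes 3.22% and 1.34% were called for these 2 differences. The M8/M4 minus F8/F4 call was lost without the second M8/M4 array (1.27, adjusted p = 0.056).

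The normalized level of Cyp2u1, in log2 intensity units of its own probe, was 8.85 and 8.63 in the pools of M8. It was 7.68 and 7.32 in M4, 7.31 and 7.26 in M3, 7.11 and 6.97 in F4, 7.13 and 6.85 in F3, and 7.12 and 6.65 in F8. M8 stood 1.24 above M4, the next group, whereas the pools of F4, F3 and F8 overlapped.

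Cyp4v3, a fatty acid ω-hydroxylase whose human counterpart is mutated in a corneoretinal dystrophy, was also higher in males at 8 wk, with a smaller ratio. M8/F8 was 0.71 and 0.75 on its arrays (estimate 0.73 ± 0.09, limma adjusted p = 0.00288), M4/F4 was 0.38 and 0.19, and M3/F3 was -0.07 and 0.16. It rose by 1.31 ± 0.09 in M8/M3 and by 0.81 ± 0.09 in M8/M4. In females F8/F3 was 0.45 and 0.67 (estimate 0.56 ± 0.09, adjusted p = 0.00798), a 1.47-fold ratio that stayed just under the fold threshold, and F8/F4 was 0.37 ± 0.09 (adjusted p = 0.038).

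The age difference between the sexes was called for Cyp4v3 from 3 wk (0.75 ± 0.13, adjusted p = 0.0262), and each of the 4 arrays behind it, when left out, ended that call (adjusted p 0.0816 to 0.138). From 4 wk it was 0.44 ± 0.13 (adjusted p = 0.195). Its log2 level was 15.52 ± 0.00 (SD, n = 2 pools) in M8, 14.82 ± 0.01 in F8, 14.74 ± 0.20 in M4, 14.51 ± 0.05 in F4, 14.41 ± 0.07 in M3 and 14.39 ± 0.19 in F3. The pools of F8 overlapped those of M4, and the pools of F3 overlapped those of F4 and of M3.

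The Cyp4f genes encode ω-hydroxylases of leukotriene B4 and other fatty acids and lie in a cluster on chromosome 17. Cyp4f13 rose in males from 3 to 8 wk, with log2 ratios of 0.64 and 0.95 (estimate 0.79 ± 0.07, limma adjusted p = 0.000665, 1.73-fold). F8/F3 (0.43), F8/F4 (0.39) and M8/M4 (0.56), all ± 0.07, passed the p threshold only, and the sexes at 8 wk were at 0.19 and -0.03. The difference between M8/M3 and F8/F3 was 0.36, with an interval of 0.14 to 0.58, and was not called (adjusted p = 0.0904). The log2 level of Cyp4f13 was 11.09 ± 0.00 in M8, 10.97 ± 0.06 in F8, 10.58 ± 0.10 in F4, 10.51 ± 0.08 in M4, 10.48 ± 0.09 in F3 and 10.27 ± 0.11 in M3 (SD, n = 2 pools).

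Cyp4f14 was at -0.53 and -0.52 in M8/F8, lower in males on both arrays. The estimate of -0.52 ± 0.11 had a limma adjusted p of 0.0238, and the ratio of 0.695 did not pass the fold threshold. Over the alternative settings the M8/F8 estimate of Cyp4f14 ran from -0.68, without the first array of M8/F8, to -0.37. Its age ratios were -0.20 and -0.64 in M8/M3 and 0.01 and 0.08 in F8/F3, and the difference between them was -0.46 (interval -0.84 to -0.08, adjusted p = 0.185). The level of Cyp4f14 was lowest in M8 (14.90 ± 0.21), and the other 5 groups, with means from 15.20 to 15.41, overlapped from each group to the next.

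Cyp4f15 stayed below the fold threshold in all 7 comparisons. It was -0.20 and -0.21 in M8/F8 (interval -0.46 to 0.04), 0.35 and 0.27 in M8/M3, and 0.25 and 0.55 in F8/F3, where the estimate of 0.40 ± 0.10 had a limma adjusted p of 0.0483. The M8/M3 estimates of these 3 genes ran from -0.42 (Cyp4f14) through 0.31 (Cyp4f15) to 0.79 (Cyp4f13).

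The RefSeq promoters of the 3 Cyp4f genes (GRCm38.p6; 250 bases before to 50 after the start site) are shown because each holds 1 inverted CCAAT box, with its leftmost base at -76 (Cyp4f13), -64 (Cyp4f14) and -78 (Cyp4f15) from the start site. Capitals mark matches to CCAAT, which reads ATTGG on the opposite strand. The motif TTCNNNGAA, which reads the same on both strands, and the motif AGGTCA were searched and marked as well, on both strands.
Cyp4f13, chr17:32947312-32947611, minus strand: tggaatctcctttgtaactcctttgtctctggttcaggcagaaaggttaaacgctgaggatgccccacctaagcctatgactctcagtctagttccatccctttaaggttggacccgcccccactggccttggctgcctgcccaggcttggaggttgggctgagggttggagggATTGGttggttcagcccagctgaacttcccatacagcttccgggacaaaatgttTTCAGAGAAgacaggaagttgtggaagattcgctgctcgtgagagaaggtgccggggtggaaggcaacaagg
Cyp4f14, chr17:32917293-32917592, minus strand: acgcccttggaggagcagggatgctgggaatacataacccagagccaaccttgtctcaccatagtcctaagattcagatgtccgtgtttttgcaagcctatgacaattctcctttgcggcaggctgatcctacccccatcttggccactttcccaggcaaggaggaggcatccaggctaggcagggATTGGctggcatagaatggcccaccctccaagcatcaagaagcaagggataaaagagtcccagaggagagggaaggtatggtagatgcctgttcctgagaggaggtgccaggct
Cyp4f15, chr17:32685409-32685708, plus strand: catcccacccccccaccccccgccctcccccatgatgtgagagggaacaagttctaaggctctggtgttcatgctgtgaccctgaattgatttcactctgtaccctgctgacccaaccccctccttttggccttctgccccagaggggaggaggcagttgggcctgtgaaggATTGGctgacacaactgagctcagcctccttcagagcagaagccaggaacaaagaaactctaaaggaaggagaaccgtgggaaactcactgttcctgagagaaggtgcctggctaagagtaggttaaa

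Promoters were held for 8 of the 10 genes, and Cyp4f14 had 4 entries, of which 1 is printed. It was picked for its likeness to Cyp4f15 (a shared run of 13 bases, which 2 other entries equalled), so nothing is read from the likeness of these promoters. The windows of the 4 entries overlap, and each held 1 CCAAT match, at -50, -64 (the entry printed), -77 or -24, and none to the other motifs. CCAAT was found in 5 of the 8 (Cyp2j6, Cyp2r1 and the 3 Cyp4f genes), against 37.4% of 32851 mouse promoters of that length. TTCNNNGAA, the core of a STAT site, was found in Cyp4f13 alone, against 8.3% of promoters, and AGGTCA, a nuclear receptor half-site, in Cyp2j5 and Cyp2f2, against 16.3%. Cyp4f13 and Cyp4f15 shared a run of 14 bases near the start site (tgagagaaggtgcc). A match here is a description of letters and says nothing of binding.

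Cyp2f2, which activates naphthalene and is known for periportal expression in liver and for high expression in airway club cells, had the largest age ratio in males of the 10 genes. M8/M3 was 1.84 and 2.40 (estimate 2.12 ± 0.12, limma adjusted p = 0.000218, 4.36-fold) and M8/M4 was 0.74 and 1.56 (estimate 1.15 ± 0.12). It rose in females as well, by 0.95 ± 0.12 in F8/F3 (arrays 0.78 and 1.12, adjusted p = 0.00357), and stood at 0.41 ± 0.12 in F8/F4 (adjusted p = 0.0772). M8/F8 was 1.27 and 0.72 (estimate 1.00 ± 0.12, adjusted p = 0.00295).

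The fitted dye term of Cyp2f2, 0.25, was larger in size than that of any of the other 9 genes, and M4/F4 was 0.74 on the first array and -0.07 on the second. Within a comparison the dyes were exchanged together with the pools, so the part of each in these differences was not tested. Without the dye term, F8/F3 (adjusted p = 0.0586) was no longer called. With averages weighted by the deposited errors, M8/M4 (1.09) was no longer called, at an unadjusted p of 0.00038 where that setting asked for less than 1e-04. The difference of M8/M3 and F8/F3 was 1.18 ± 0.18 (adjusted p = 0.0175). That call was lost without the dye term (adjusted p = 0.176), with shared pools in the model (0.0577) and without any 1 of its 4 arrays (0.0722 to 0.0961).

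The log2 level of Cyp2f2 was 17.29 ± 0.05 in M8 and 16.58 ± 0.11 in F8 (SD, n = 2 pools). F4 (16.32 ± 0.08), M4 (16.32 ± 0.39), F3 (16.18 ± 0.16) and M3 (15.87 ± 0.37) overlapped from each group to the next. Of the club cell markers, Scgb1a1 was above background in 22 of 28 channels and Scgb3a1 in 19, and their summed log2 level was 4.90 (M3 and M8) to 5.13 (F8). Of 14 other periportal hepatocyte genes, all above background in every channel, 4 rose in M8/M3 (Sds, Pck1, Pigr and Etnppl) and 6 in F8/F3, against 16.8% and 10.8% of all probes called. In M8/M4 Etnppl rose and Hsd17b13 (-1.23 ± 0.28) and Ctsc (-1.07 ± 0.07) fell, against 10.1% of all probes called. Pigr alone was called in F8/F4, against 5.41% of all probes. In M3/F3 Pck1 alone was called, lower in males (-1.19 ± 0.21), against 0.464%. At 8 wk 1 of these 14 genes was higher in males (Etnppl, 0.96 ± 0.21) and 2 were lower (Gls2 and Ctsc). The median M8/F8 of the 14 was -0.44, beside 0.01 and 6.31% called over all probes.

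The promoters of Cyp2f2 and Cyp4v3 are shown because both genes rose in males and were called in the same direction between the sexes at 8 wk. Their longest shared run had 10 bases, and the searched motifs gave 1 match in Cyp2f2, in capitals, and none in Cyp4v3.
Cyp2f2, chr7:27119705-27120004, plus strand: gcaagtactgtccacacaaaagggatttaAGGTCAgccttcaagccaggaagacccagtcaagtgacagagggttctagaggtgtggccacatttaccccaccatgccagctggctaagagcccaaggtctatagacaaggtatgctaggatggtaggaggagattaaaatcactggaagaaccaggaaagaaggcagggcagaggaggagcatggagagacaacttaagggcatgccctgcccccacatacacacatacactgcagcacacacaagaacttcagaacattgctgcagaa
Cyp4v3, chr8:45333114-45333413, minus strand: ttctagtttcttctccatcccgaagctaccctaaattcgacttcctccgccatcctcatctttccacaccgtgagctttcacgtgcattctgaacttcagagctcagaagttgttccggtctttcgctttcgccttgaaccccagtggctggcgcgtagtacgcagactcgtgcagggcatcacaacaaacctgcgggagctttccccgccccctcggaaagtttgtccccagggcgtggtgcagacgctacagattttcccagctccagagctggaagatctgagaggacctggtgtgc

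**Figure D3:**
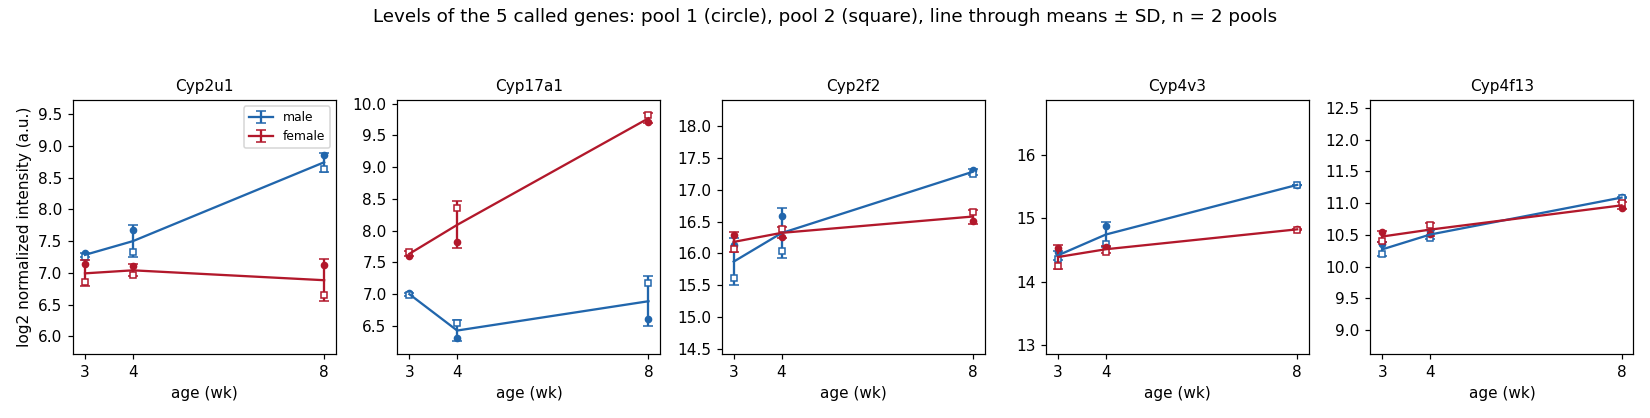
Log2 normalized intensity (y axis, arbitrary units of each gene's own probe, all panels spanning 4 units) of the 5 called genes against age in wk (x axis), with circles and squares for the 2 pools and lines through the means ± SD in males (blue) and females (red). Cyp17a1 is at 9.77 in F8 and 6.89 in M8, and Cyp2u1 at 8.74 in M8 and 6.88 in F8.

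Cyp17a1 encodes the steroid 17α-hydroxylase, which is also a lyase, best known from steroid-making tissues such as the gonads. It showed the largest difference between the sexes among the 10 genes, and it was higher in females at 4 and 8 wk. Its array probe, a 60-base oligonucleotide, is shown because every value below comes from it.
Cyp17a1 array probe: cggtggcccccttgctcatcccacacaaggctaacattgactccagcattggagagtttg

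The log2 ratio was -2.87 and -2.44 on the arrays of M8/F8 (estimate -2.66 ± 0.17, limma adjusted p = 0.000285), a 6.32-fold excess in females. It was -1.44 and -1.71 in M4/F4 (estimate -1.58 ± 0.17, adjusted p = 0.00171, 2.98-fold). In M3/F3 it was -0.31 and -0.78, and the estimate of -0.55 ± 0.17 was not called (adjusted p = 0.0852). The arrays of the 3 ages did not overlap.

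Cyp17a1 rose with age in females, and its age ratios in males were not called. In females it rose by 1.93 ± 0.17 in F8/F3 (arrays 1.87 and 1.98, limma adjusted p = 0.00084) and 2.83-fold in F8/F4 (log2 ratios of 1.58 and 1.42, adjusted p = 0.00205). In males M8/M3 was -0.59 and 0.01 (interval -0.69 to 0.11) and M8/M4 was 0.06 and 0.37 (interval -0.19 to 0.62). The difference of M8/M3 and F8/F3 was -2.22 ± 0.24 (adjusted p = 0.00697). From 4 wk it was -1.29 ± 0.24, which was not called (adjusted p = 0.0609) but passed with group means (adjusted p = 0.00142) and with normexp and loess (0.0125), and with averages weighted by the deposited errors (unadjusted p = 2.76e-10).

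The log2 level of Cyp17a1 was 9.71 and 9.83 in the pools of F8, 7.83 and 8.35 in F4, 7.61 and 7.66 in F3, 7.02 and 6.98 in M3, 6.61 and 7.17 in M8, and 6.31 and 6.54 in M4. The 3 female groups lay above the 3 male groups without overlap, and the pools of M3 and M8 overlapped.

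Markers of the adrenal cortex are given beside Cyp17a1. Cyp11a1, Cyp11b1 and Mc2r were above background in 0 of 28 channels, and Cyp11b2 in 2. Star, Cyp21a1 and Nr5a1 were above background in all channels. Nr5a1, a steroidogenic transcription factor, was lower in males at 8 wk (-0.70 ± 0.11) and rose in females from 3 to 8 wk (1.21 ± 0.11). Unlike Cyp17a1 it was called in males as well, rising by 0.67 ± 0.11 in M8/M3, and the difference of these age ratios was not called (-0.54 ± 0.15, limma adjusted p = 0.112). Cyp21a1 rose in M8/M3 (1.27 ± 0.33), and neither Star nor Cyp21a1 was called in M8/F8. The summed level of the list averaged 8.50 in M3 (the lowest group), 9.52 in M8 and 9.53 in F8.

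Of the 12 steroid synthesis genes, 6 stood clear enough of background to be tested in M8/F8. Of these, 3 were lower in males (Hsd3b1, Nr5a1 and Por) and none was higher, against 6.31% of all probes called. In M8/M3 Cyp21a1 and Nr5a1 rose. In M8/M4 Cyp21a1 rose (1.54 ± 0.33), and Hsd17b3 was called as well, but it was well above background in 11 of 28 channels and its ratio is not given. Hsd3b1, the 3β-hydroxysteroid dehydrogenase that acts beside Cyp17a1, was at -4.37 ± 0.43 in M8/F8, and it fell with age in both sexes (-5.06 in M8/M3 and -2.30 in F8/F3). It belongs to a family of near-identical genes, whose signals cannot be told apart. The median log2 ratio over all 12 in M8/F8, untested genes included, was -0.01.

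Cyp2r1, the microsomal vitamin D 25-hydroxylase, was called in no comparison. The nearest was M3/F3, with 0.42 and 0.24 on its arrays (estimate 0.33 ± 0.10, limma adjusted p = 0.0836). M8/F8 was -0.08 and 0.10 (interval -0.23 to 0.25), and M8/M3 was -0.14 and 0.08 (interval -0.27 to 0.21). The level was 11.19 ± 0.15 in F3 and 11.49 to 11.57 in the other 5 groups. The order of these 5 depended on how the channels were scaled, and F3 was lowest under both scalings. Among 9 genes of vitamin D handling, Cyp27a1, a mitochondrial 25-hydroxylase, rose in M8/M3 (0.64 ± 0.08) and M8/M4 (0.70 ± 0.08), Lrp2 fell by 0.72 in M8/M3, and none of the 6 tested in M8/F8 was called. The shares of all probes called were 16.8% in M8/M3, 10.1% in M8/M4 and 6.31% in M8/F8.

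**Figure D4:**
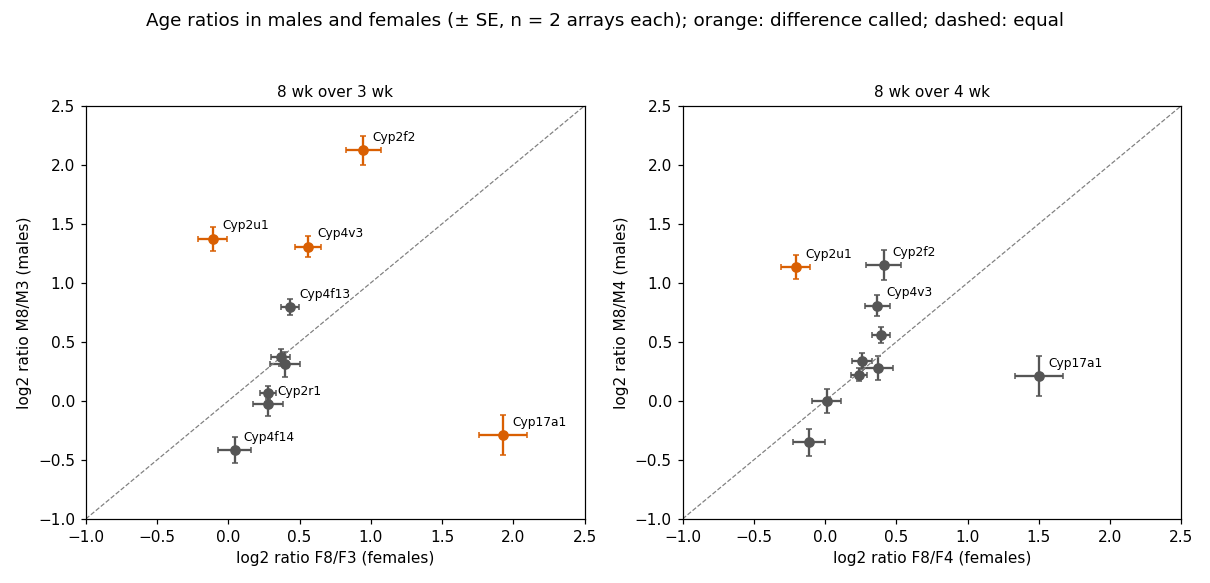
Log2 age ratio in males (y axis) against that in females (x axis) for the 10 genes, from 3 to 8 wk (left) and from 4 to 8 wk (right), with bars for the SE, orange for a called difference and a dashed line of equal ratios. Cyp17a1 lies below the line (1.93 in F8/F3, -0.29 in M8/M3), and Cyp2u1, Cyp2f2 and Cyp4v3 above it in M8/M3 (1.37, 2.12 and 1.31).

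The difference of age ratios was read a second time from arrays that did not enter it, as M8/F8 minus M3/F3 or M4/F4. For M8/M3 minus F8/F3 this gave 1.58 for Cyp2u1, 1.17 for Cyp2f2, 0.69 for Cyp4v3 and -2.11 for Cyp17a1, beside 1.48, 1.18, 0.75 and -2.22 directly. Over the 10 genes the readings differed by at most 0.14 from 3 wk and 0.21 from 4 wk. M8/M3 minus F8/F3 crosses the 2 scan days and their slides, whereas M8/F8 minus M3/F3 lies within the earlier day. From 4 wk both readings lie within 1 day each. A dye term for each day and the slide as a random block changed no call of these genes. The arrays differ but the pools are the same, so these are readings of the same animals.

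Electron donors of P450s in general, and the enzymes that act before or after these P450s, were described from fixed lists. Of 6 electron donors, Por was lower in males at 8 wk (-0.94 ± 0.18, limma adjusted p = 0.0148), against 6.31% of all probes called in M8/F8. Fdx1 rose in M8/M3 (0.64 ± 0.12), a share of the list near the 16.8% of all probes, and the other 4 were called nowhere. Of 14 eicosanoid and epoxide enzymes, 11 were tested and 3 called in M8/F8, against 6.31% of all probes. The epoxide hydrolases Ephx1 (0.99 ± 0.21) and Ephx2 (0.63 ± 0.05) were higher in males, and Hpgd, which inactivates prostaglandins, was lower (-0.81 ± 0.08). Of 12 tested in M8/M3, 2 rose (Ephx1 and Ephx2) and 3 fell (Alox12, Hpgd and Ptgr1), against 16.8% of all probes. Ptgr1, a prostaglandin and leukotriene B4 reductase, fell with age in all 4 age comparisons, by 0.62 (F8/F4) to 1.03 (M8/M3).

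For each gene called in M8/F8, the 3 named genes most like it were taken by Pearson r over the 14 turned log2 ratios, among 20451 probes above background in all channels. For Cyp2u1 these were Atg16l2 (0.98), Ugt2b35 (0.97) and Gstp1 (0.97), the last at 3.27 in M8/F8. For Cyp17a1 they were Sult1d1 (0.98), Klb (0.98) and Rasa3 (0.97). For Cyp2f2 they were Cblc, Tusc2 and Atg2a (0.96 to 0.97), and for Cyp4v3 they were Barhl1, Vmn1r65 and Ube2g1 (0.98 to 0.99). The 14 arrays share pools and dyes, so r describes likeness of pattern only.

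In bulk liver, fewer cells of a type and less RNA per cell cannot be told apart. Blood and stromal markers moved with age and sex beside these results. The summed log2 level of 6 neutrophil markers was 13.16 in F3 and 12.18 in M3, and 10.72 in F8 and 10.40 in M8. That of 5 Kupffer cell markers was lowest in M8 (14.10, with 14.64 in M3 and 14.67 in F8), and that of 6 stellate and fibroblast markers went from 16.37 in M3 to 15.37 in M8. The 4 measured erythroid markers spanned 11.21 (F8) to 13.36 (M8), the 5 bile duct markers 11.71 (F8) to 12.91 (M3), the 5 endothelial markers 14.70 (M8) to 14.97 (F4), and the 7 lymphocyte markers 9.22 (M8) to 9.46 (F4). The part of these cells in the P450 ratios was not tested.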

How the data were processed

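Liver RNA pools were hybridized to 14 Agilent 4x44k v2 mouse arrays. The authors deposited scanner output of Feature Extraction 10.7.1.1, with spot and background intensity in arbitrary units, processed intensity after background subtraction and dye normalization, and log10 of red over green for each spot. The deposited log10 values of the series table equalled the scanner ratios (largest difference 0). Direction was taken from the dye labels of each sample. Ratios were converted to log2, turned to male over female or 8 wk over younger, and averaged per probe, without non-uniform outliers. They were fitted in R 4.3.3 with limma 3.58.1 (7 comparisons and 1 dye term, residual df 6), with Benjamini-Hochberg adjustment over all probes and the 7 comparisons, and within each difference of 2 comparisons. A call needed an adjusted p under 0.05, a change of more than 1.5-fold, and signal well above background in at least 1 group. The probe of a gene was its brightest with a RefSeq accession (26055 of 39429 probes were named); all 10 genes are reported, with the 3 genes most alike for each called in M8/F8. Levels are per-channel log2 intensity after Aquantile normalization, averaged per pool, and are not compared between probes. Each estimate rests on 2 arrays per comparison. The SE of a probe was taken from the residual spread of all 14 arrays together, treated as independent although pools were shared. A model with shared pools put the variance between pools at a ratio of 2.50 to that between arrays. P-values of the main fit therefore do not fully carry the spread between pools. Normexp used pixel medians of intensity. The members and lists were chosen with earlier results of these data known. Fitting was tested on simulated data.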

Additional observations from a re-analysis of the deposited data

Results flagged for a closer look

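The change with age differed between the sexes by a test of the difference itself in 5 cases. For M8/M3 minus F8/F3 the log2 difference was 1.48 for Cyp2u1, 1.18 for Cyp2f2, -2.22 for Cyp17a1 and 0.75 for Cyp4v3, each from 2 arrays per comparison and in the same direction on both. For M8/M4 minus F8/F4 it was 1.34 for Cyp2u1. Those of Cyp2f2 and Cyp4v3 lost their call when any 1 of the 4 arrays was left out, and that of Cyp2u1 from 4 wk without the second M8/M4 array (adjusted p = 0.056 with limma), as given above. The difference from 3 wk crosses the 2 scan days; read within the earlier day, as M8/F8 minus M3/F3, it was 1.58 for Cyp2u1, 1.17 for Cyp2f2, -2.11 for Cyp17a1 and 0.69 for Cyp4v3, which was not tested. With 2 pools per group, no search for single outlying pools was made.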

How the results depend on the processing

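No value reversed its direction with a call under any alternative; of 1570 recomputed values, 37 changed their call, and 30 others changed sign with no call under either setting (from at most 0.17). With the replicate number as a replicate block, the counts of called genes were 0, 1, 4, 4, 3, 2 and 1 in the 7 comparisons and 4 and 1 in the differences, as without it, and calls over all probes and comparisons went from 13081 to 13152. Pools with the same number deviated together around the loops of arrays (r = 0.58 at 3 wk and 0.61 at 4 wk over 27349 probes, which are not independent replicates). For M8/M4 minus F8/F4, 3 genes were called with group means, 2 with normexp and loess and 2 with error-weighted averages, in place of 1. Without the dye term 1 gene was called in F8/F3 in place of 2. Without the fold threshold 7 genes were called in F8/F3 (2 with it), 6 in M8/M4 (3 with it) and 4 in F8/F4 (1 with it). The other probe of Cyp2j6 and Cyp2r1, tried after seeing the data, gave 2 in F8/F4. Leaving out 1 array gave counts of 0 to 0 (M3/F3), 1 to 1 (M4/F4), 4 to 5 (M8/F8), 4 to 4 (M8/M3), 3 to 4 (M8/M4), 2 to 3 (F8/F3), 1 to 1 (F8/F4), 2 to 2 (M8/M3 minus F8/F3, in place of 4) and 0 to 1 (M8/M4 minus F8/F4); the lone array was then assumed to vary like the others. Scaling each channel to 1 median in place of Aquantile moved no level by more than 0.13 relative to the gene's mean, but changed the order of the 6 groups in 9 of 10 genes; the highest group stayed in 8 genes and the lowest in 8. The cause of these changes was not tested. Groups of 2 pools limit all estimates.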
